A study of Mus musculus with 19 samples.

Results

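The genes of mouse non-small cell lung cancer (NSCLC) organoids labelled as resistant to immunotherapy were set against those of organoids labelled as sensitive to it. The series title places the comparison in acquired resistance and in collagens made by the cancer cells themselves. All genes with enough counts in 12 libraries were compared, 14360 of the 24421 genes listed, and each change was described by how even it was over the resistant libraries. The series measured RNA by bulk sequencing in 19 libraries, of which the 9 immunotherapy-resistant and 3 immunotherapy-sensitive NSCLC libraries were analysed here. An organoid is a 3-dimensional culture grown from tissue cells. Beyond the words resistant and sensitive, the labels name the tissue as NSCLC. They give no strain, driver mutation, sex, age, drug, dose or passage for either group, and nothing says whether libraries came from separate animals or cultures. The p-values below therefore measure the spread between libraries, which may be technical.

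Carcinoma cells can exchange an epithelial programme, with keratins, E-cadherin and tight junctions, for a mesenchymal one, with vimentin, fibrillar collagens and a motile shape. Transcription factors of the TWIST, ZEB and SNAIL families drive this exchange, and ZEB and SNAIL proteins repress epithelial genes by binding short E-box motifs. Peptides on MHC class I molecules, in turn, are what CD8 T cells recognise on a tumour cell, so class I genes, interferon genes and the ligands of inhibitory receptors were followed beside the epithelial and mesenchymal lists.

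The libraries were not equally related. Resistant libraries held 11988677 to 24462955 counts and sensitive libraries 15292427 to 18716749. Resistant libraries 2 and 3 (Pearson r = 0.980 across genes in log2 CPM, counts scaled to library size) and 8 and 9 (r = 0.979) were as alike as the 3 sensitive libraries were among themselves (0.964 to 0.983). Resistant libraries 6, 8 and 9 had 433 to 805 counts of Xist, the RNA of the inactive X chromosome, and 0 counts of 4 Y-linked genes. The other 9 libraries had at most 9 counts of Xist and 110 to 1047 Y-linked counts. The epithelial origin of NSCLC cells did not show evenly in the resistant libraries, where Epcam, an epithelial adhesion molecule, had 0.818 to 323 CPM, against 598, 538 and 589.6 CPM in sensitive ones. Cdh1, E-cadherin, and the keratin gene Krt19 had 0.603 to 170 and 10.2 to 548 CPM, against 868 to 954 and 789 to 2258 CPM. The keratin genes Krt8 and Krt18 were well above 0 in every resistant library. They had 143 to 429.9 and 106 to 713 CPM, against 1161 to 1466 and 1248 to 1661 CPM. Of 5 lung epithelial markers, the transcription factor genes Nkx2-1 and Foxa2 had 1.06 to 61.6 and 0.199 to 20.1 CPM in resistant libraries, against 72.6 to 89.2 and 53.5 to 86.98 CPM in sensitive ones. Sftpb, surfactant protein B, had 0.135 to 132 CPM, against 426 to 1274 CPM. Sftpc, surfactant protein C, and Scgb1a1, the club cell secretoglobin, were low or absent in most resistant libraries, with 0 to 9.16 and 0 to 28.5 CPM, against 2.74 to 4.33 and 5.64 to 12.01 CPM. Resistant libraries 8 and 9 were above the sensitive range for both, at 5.19 and 9.16 CPM for Sftpc and 16.2 and 28.5 CPM for Scgb1a1.

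Some 250 bases ahead of the transcription start are shown for 1 gene that was higher and very even in the resistant libraries (Twist1) and for 3 epithelial genes that were low in most of them and varied widely (Epcam, Krt7 and Pigr). The sequences are from RefSeq on GRCm38.p6, 5′ to 3′ on the plus strand, and each ends at the base before the RefSeq start, which for Krt7 lies inside the longer gene model of GENCODE. Capitals mark the E-box CAGGTG, on either strand.
Twist1, chr12:33957421-33957670: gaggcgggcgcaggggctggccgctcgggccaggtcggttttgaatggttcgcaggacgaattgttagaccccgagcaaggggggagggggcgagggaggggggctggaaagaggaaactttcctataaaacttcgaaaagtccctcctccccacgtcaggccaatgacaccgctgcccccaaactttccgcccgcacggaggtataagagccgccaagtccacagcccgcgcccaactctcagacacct
Epcam, chr17:87635729-87635978: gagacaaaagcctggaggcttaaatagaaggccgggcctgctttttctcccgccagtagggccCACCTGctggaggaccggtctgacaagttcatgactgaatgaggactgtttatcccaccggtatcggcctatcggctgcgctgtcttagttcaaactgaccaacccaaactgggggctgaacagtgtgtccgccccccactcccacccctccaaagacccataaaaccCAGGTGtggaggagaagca
Krt7, chr15:101412153-101412402: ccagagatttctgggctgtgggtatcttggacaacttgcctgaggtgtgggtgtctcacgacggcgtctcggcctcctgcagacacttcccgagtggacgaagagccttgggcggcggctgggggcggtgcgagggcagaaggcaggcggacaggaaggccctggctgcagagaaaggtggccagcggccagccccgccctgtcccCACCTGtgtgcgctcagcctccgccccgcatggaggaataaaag
Pigr, chr1:130826434-130826683: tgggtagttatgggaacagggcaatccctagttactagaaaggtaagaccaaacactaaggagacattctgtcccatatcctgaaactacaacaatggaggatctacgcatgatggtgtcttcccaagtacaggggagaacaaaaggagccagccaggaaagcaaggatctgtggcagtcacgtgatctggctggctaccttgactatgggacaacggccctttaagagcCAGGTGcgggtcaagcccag
The genes shown were chosen by hand, so their matches do not give the share in other genes of the same form. The motif had 2 matches ahead of Epcam, 1 each ahead of Krt7 and Pigr, and 0 ahead of Twist1. Among 10804 tested genes matched to a RefSeq promoter, 18.9% held it in at least 1 listed window of this length. The share was 17.2% of 2045 genes higher in resistant libraries and 24.3% of 1941 lower ones. By the classes defined in the next paragraph, it was 15.2% of 915 evenly higher, 19.3% of 720 evenly lower, 13.3% of 15 unevenly higher and 37.7% of 69 unevenly lower genes with a promoter entry. A match is a description of the sequence and no evidence that a factor was bound there.

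In resistant libraries 2768 genes (19.3% of those tested) were higher and 2612 (18.2%) lower at an adjusted p under 0.05 (edgeR quasi-likelihood test with Benjamini-Hochberg adjustment), or 37.5% in either direction. All 9 resistant libraries lay above the 3 sensitive ones in 2037 of the higher genes (73.6%), and 8 of 9 did in another 591 (21.4%). Among lower genes all 9 lay below the sensitive libraries in 2195 (84.0%) and 8 of 9 in 300 (11.5%). Over every tested gene, called or not, the groups did not overlap in 14.8% with the resistant libraries higher and in 16.5% with them lower. A change was termed even when it was called, all 9 resistant libraries lay outside the sensitive range, and the SD of log2 CPM over the 9 was at most 0.5. This held for 1167 higher genes (8.13% of those tested, 42.2% of the higher calls) and 930 lower genes (6.48%, and 35.6% of the lower calls). A change was termed uneven when it was called with an SD of at least 2, which held for 24 higher genes (0.167%) and 95 lower genes (0.662%). Just inside the first limit stood Fuk (SD 0.498) and just outside it Hn1l (0.50005). Itga2, at 2.11, stood just inside the second and Hspb8, at 1.93, just outside.

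**Figure D1:**
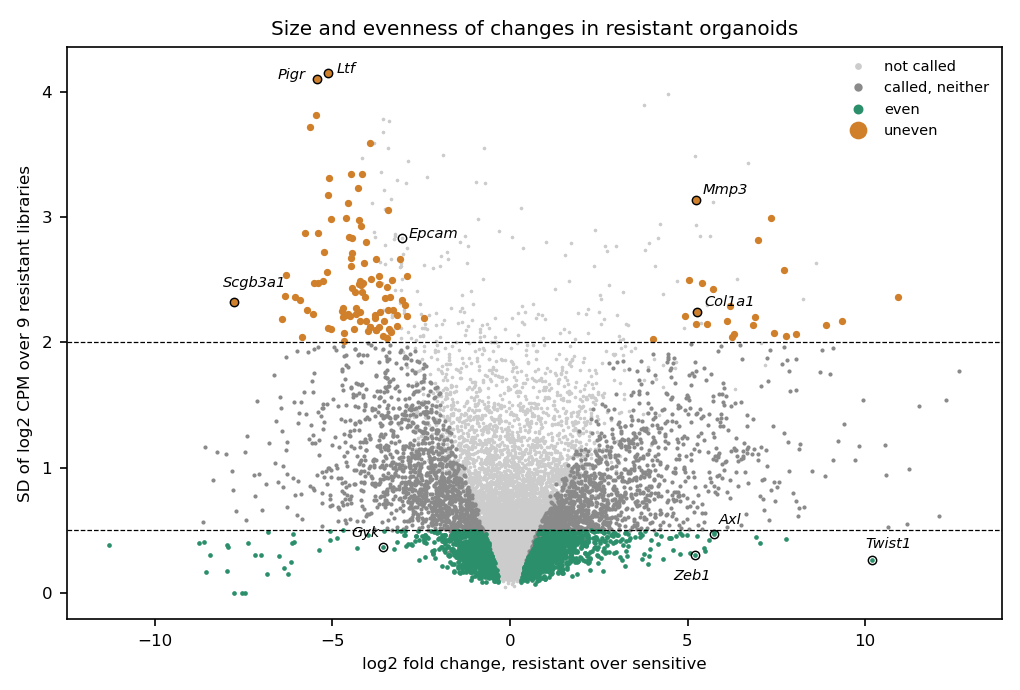
Log2 fold change of each tested gene, resistant over sensitive (x axis), against the SD of its log2 CPM over the 9 resistant libraries (y axis), with grey points for genes not called, dark grey for other called genes, green for even and orange for uneven changes. Twist1 stands at the far right near the bottom, with a log2 fold change of 10.19 and an SD of 0.26, and Pigr and Ltf at the upper left, with SDs of 4.10 and 4.15.

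Lower genes varied more among the resistant libraries than higher ones. The median SD over the 9 was 0.479 for higher, 0.602 for lower and 0.466 for uncalled genes, against 0.248 over the 3 sensitive libraries for all genes. In genes whose mean log2 CPM reached 3 the medians came close, at 0.379 for higher, 0.391 for lower and 0.379 for uncalled genes. Even changes were mostly moderate. Their median log2 fold change was 1.02 for higher and -0.88 for lower genes, and 143 and 71 of them reached a log2 fold change of 2 in size. A small SD can also come from counts near 0, since a prior count of 2 was added: every resistant library was below 1 CPM in 32 of the 930 evenly lower genes.

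Among genes whose mean log2 CPM reached 3, the largest even rise was that of Twist1. Twist1 (chromosome 12, 33957671 to 33959829, mm10), a basic helix-loop-helix driver of mesenchymal transition, had 89.5 CPM in the lowest, 132 in the median and 151 in the highest resistant library, against 0.1095, 0.0609 and 0.135 CPM in sensitive libraries 1, 2 and 3. All 9 libraries thus stood within a narrow band far above the 5 counts of the whole sensitive group (log2 fold change 10.19 ± 0.34 SE, adjusted p = 2.39e-09, edgeR). Zeb1, a zinc finger repressor of epithelial genes, had 44.4, 58.96 and 86.8 CPM at its lowest, median and highest, against 1.04, 2.93 and 1.15 CPM in sensitive libraries, with no overlap (log2 fold change 5.20 ± 0.40 SE, adjusted p = 3.92e-06). The receptor tyrosine kinase gene Axl (chromosome 7, 25757273 to 25788705), which binds the ligand GAS6, ranged from 371 through a median of 593 to 1030.4 CPM in resistant libraries, against 9.91, 18.6 and 6.61 CPM in sensitive ones. Every resistant library was above every sensitive one for Axl (log2 fold change 5.74 ± 0.47 SE, adjusted p = 6.24e-06).

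Flnc (chromosome 6, 29433256 to 29461883), the actin crosslinker filamin C, had 73.8 to 191 CPM (median 151) in resistant libraries and 0.657, 0.914 and 0.405 CPM in sensitive ones (log2 fold change 7.77 ± 0.42 SE, adjusted p = 2.88e-07). Tgfb3 (chromosome 12, 86056745 to 86079041), a secreted ligand of the TGF-beta family, had 41.7 to 85.8 CPM (median 57.5), against 1.04, 1.89 and 1.21 CPM. Both were far above the sensitive range in all 9 libraries, with an SD over the resistant group of 0.43 for Flnc and 0.34 for Tgfb3. Hspg2, which encodes the basement membrane proteoglycan perlecan, reached 267 to 801 CPM (median 529.9), against 13.6, 22.6 and 16.3 CPM. Gpx8, an endoplasmic reticulum peroxidase, had 31.5 to 71.1 CPM (median 37.04), against 1.095, 1.04 and 0.675 CPM, with library 7 above the other 8. Fgd1, an activator of the GTPase CDC42, had 14.9 to 28.5 CPM (median 24.4), against 0.274, 0.488 and 1.35 CPM. Fut10, a fucosyltransferase, and Mxra7, a gene named for matrix remodelling, complete the 10 largest even rises, with log2 fold changes of 5.27 and 4.79.

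**Figure D2:**
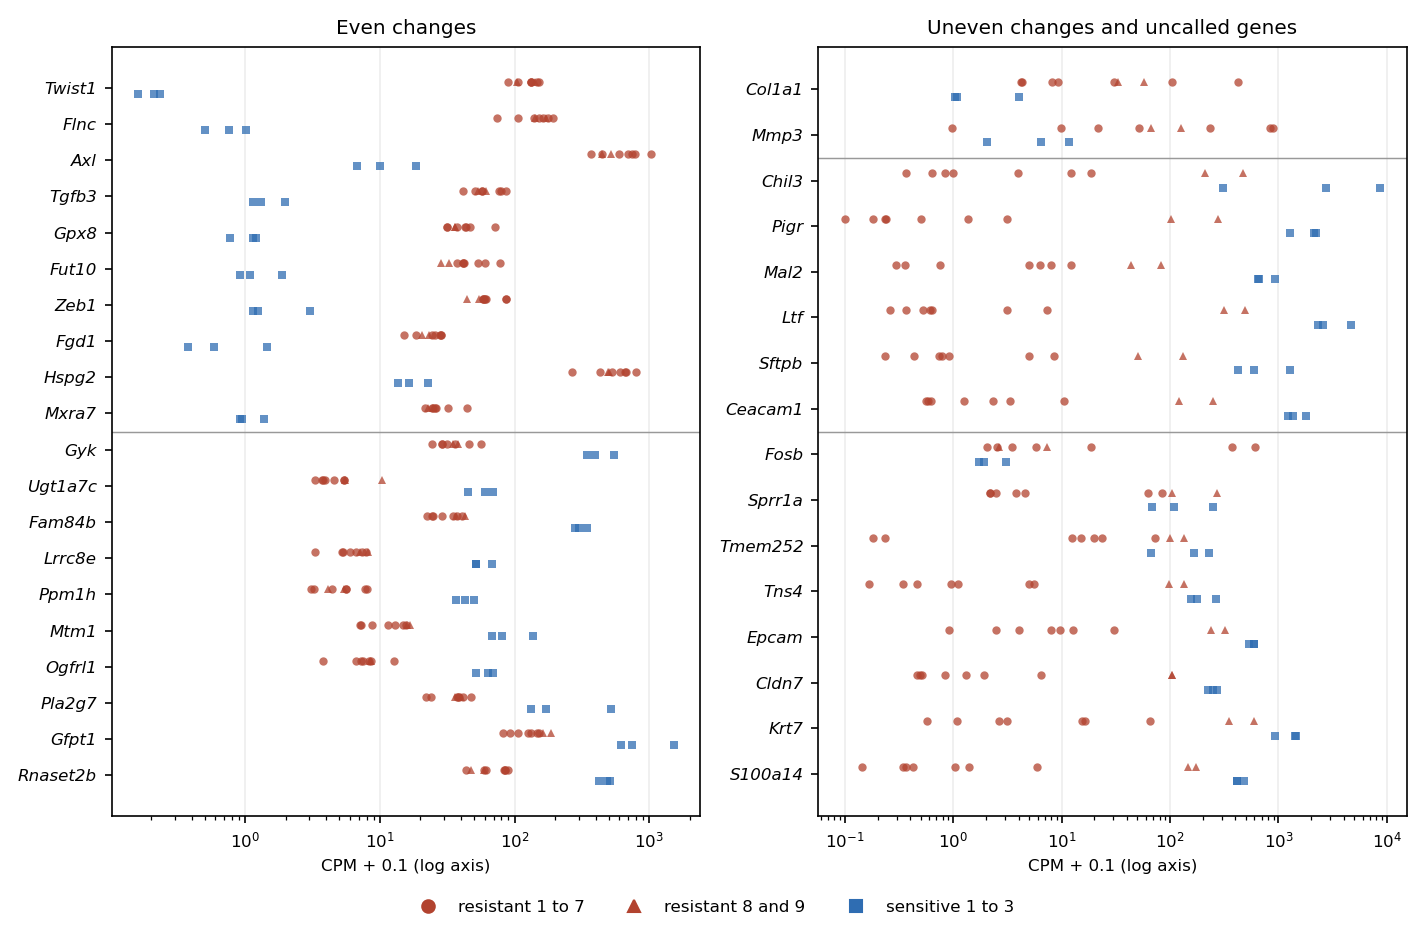
CPM plus 0.1 on a log axis for genes with even, uneven or uncalled changes; red circles are resistant libraries 1 to 7, red triangles resistant libraries 8 and 9, and blue squares the 3 sensitive libraries. For Twist1 the 9 resistant values span 89.5 to 151 CPM, while for Pigr they span 0 to 279 CPM with libraries 8 and 9 nearest to the sensitive ones.

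The largest even falls among genes whose mean log2 CPM reached 3 are given next. Without that limit 30 evenly lower genes reached a log2 fold change of 4 in size, as did 25 evenly higher ones. Gyk, glycerol kinase, had 24.4, 35.02 and 56.5 CPM at its lowest, median and highest in resistant libraries, against 545, 397 and 343 CPM in sensitive ones (log2 fold change -3.57 ± 0.21 SE, adjusted p = 6.50e-07). Gfpt1 (chromosome 6, 87042846 to 87092197), the first enzyme of the hexosamine pathway that supplies sugars for glycosylation, had 81.6 to 187 CPM (median 133), against 749, 612 and 1517 CPM (log2 fold change -2.86 ± 0.26 SE, adjusted p = 1.18e-05). Every resistant library was below every sensitive one for both. Ugt1a7c, a glucuronosyltransferase of xenobiotic clearance, had 3.19 to 10.2 CPM, against 44.97 to 69.03 CPM, with library 9 the highest of the 9. It shares its downstream exons with other Ugt1a genes, so the authors' counting could split reads among them. Fam84b had 22.2 to 42.9 CPM, against 282 to 346 CPM. Lrrc8e, a subunit of volume-regulated anion channels, had 3.23 to 8.11 CPM, against 51.4 to 67.6 CPM. Pla2g7, a secreted phospholipase made largely by macrophages, had 21.8 to 47.5 CPM, against 170.1, 519 and 132 CPM in sensitive libraries 1, 2 and 3, so the fall was even among resistant libraries while sensitive library 2 stood high. The phosphatase genes Ppm1h and Mtm1, the gene Ogfrl1 and the ribonuclease gene Rnaset2b, which has a near-identical copy, had log2 fold changes of -3.06, -2.96, -2.96 and -2.80.

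Library 9 had the highest CPM of the 9 resistant libraries in 83 of the 95 unevenly lower genes, and library 8 or 9 did in 86. How often libraries 8 and 9 both stood above the other 7 was not counted. Foxa2, also unevenly lower, was highest in library 4, at 20.1 CPM. In bulk RNA, fewer cells of a type and less RNA per cell cannot be told apart. Pigr (chromosome 1, 130826684 to 130852249), the receptor that carries polymeric immunoglobulin across epithelium, had 101 and 279 CPM in resistant libraries 8 and 9 and 3.01 CPM or less in the other 7, against 1271, 2198 and 2111 CPM in sensitive libraries (log2 fold change -5.44 ± 1.85 SE, adjusted p = 0.0339). Ltf, the secreted iron binder lactoferrin, had 488 and 316 CPM in libraries 8 and 9 and 7.26 CPM or less in the others, against 2315, 4636 and 2583 CPM (adjusted p = 0.0437). These 2 genes were near 0 in 7 resistant libraries and expressed in 2. Sftpb followed the same order, with 50.5 and 132 CPM in libraries 8 and 9 and 8.32 CPM or less in the other 7, against 426, 598 and 1274 CPM. Mal2, a protein of apical transcytosis, had 0.199 to 81.9 CPM, against 643 to 927 CPM, and Ceacam1, an epithelial adhesion molecule that is also a ligand of the inhibitory receptor TIM-3 of T cells, 0.464 to 251 CPM, against 1232 to 1798 CPM. Chil3, a chitinase-like protein secreted by macrophages and in lung, had 0.269 to 473 CPM, against 2749, 8685 and 308 CPM, and here 1 resistant library overlapped sensitive library 3. The calls of Ltf and Pigr were lost without any 1 of the sensitive libraries or without resistant library 7, and that of Ltf also without resistant library 1, 2, 3, 4, 5 or 6. Those of Sftpb and Ceacam1 were lost without sensitive library 3, and that of Chil3 without sensitive library 2.

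Some epithelial genes with the split of Pigr and Ltf, resistant libraries 8 and 9 above the other 7, did not pass the test. Krt7 (chromosome 15), a simple epithelial keratin, had 352 and 599 CPM in resistant libraries 8 and 9, a median of 15.2 CPM over all 9 and a low of 0.473, against 931, 1455 and 1414 CPM in sensitive libraries. All 9 were below the sensitive range, yet the adjusted p was 0.0833. Epcam was split alike (adjusted p = 0.0774), with 237 and 323 CPM in libraries 8 and 9. The tight junction gene Cldn7 (0.359 to 104 CPM, against 221 to 272 CPM, adjusted p = 0.0846), S100a14 (0.04304 to 175 CPM, against 416 to 477 CPM, adjusted p = 0.103), and Tns4, an adaptor of epithelial focal adhesions (0.0663 to 133 CPM, against 155 to 264 CPM, adjusted p = 0.146), had the same form. Over all genes, 177 had every resistant library below every sensitive one without a call, with a median SD of 0.756, and 84 had every one above without a call, with a median SD of 0.314. Fosb, an immediate early transcription factor, was split otherwise: it had 370.3 and 609.8 CPM in resistant libraries 2 and 3 and 18.7 CPM or less in the other 7, against 2.96, 1.83 and 1.62 CPM (adjusted p = 0.08). Sprr1a, a cornified envelope protein, and Tmem252 overlapped the sensitive range and were not called (adjusted p = 0.459 and 0.208).

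Unevenly higher genes were few, and no single resistant library had the lowest CPM in most of them. Col1a1 (chromosome 11, 94936224 to 94953042), the alpha 1 chain of type I collagen, had 4.07 CPM in its lowest, 30.5 in its median and 426 in its highest resistant library, number 5, against 0.986, 3.901 and 0.945 CPM in sensitive libraries (log2 fold change 5.27 ± 1.74 SE, adjusted p = 0.0298). All 9 were above the sensitive range, but libraries 2 and 3 only narrowly, at 4.07 and 4.24 CPM. Mmp3, the matrix protease stromelysin-1, had 829 and 898 CPM in libraries 5 and 7 and 0.879 CPM in library 1, below all of the sensitive libraries at 11.5, 6.3995 and 1.96 CPM (adjusted p = 0.0441). Over the 24 unevenly higher genes, the resistant library with the lowest CPM was number 1 in 6, 3 in 5 and 2 in 4. It was number 5 in 3, 6 in 3, 4 in 1, 7 in 0 and 8 or 9 in 2. The call of Col1a1 was lost without any 1 sensitive library, as was that of Mmp3, which was also lost without resistant library 4, 5, 7 or 8.

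Across all called genes, single libraries departed from the group in their own ways. The median change of a library, as a percentage of the mean change of the group, ran from 91.0% (library 6) to 116% (library 3) in higher genes and from 80.3% (library 9) to 109.9% (libraries 5 and 6) in lower genes. Library 1 had the lowest CPM of the 9 in 22.04% of higher genes, and library 9 the highest in 26.8% of lower genes. Library 7 had the lowest CPM in 2.96% of higher genes and the highest in 3.48% of lower genes. Among genes in which 8 of 9 libraries lay outside the sensitive range, library 1 was the exception in 154 higher genes and library 9 in 55 lower genes, the most of any library in each direction. Neither library 2 nor library 3 lay above the sensitive range, while the other 7 did, in 26 called genes and 162 uncalled ones.

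**Figure D3:**
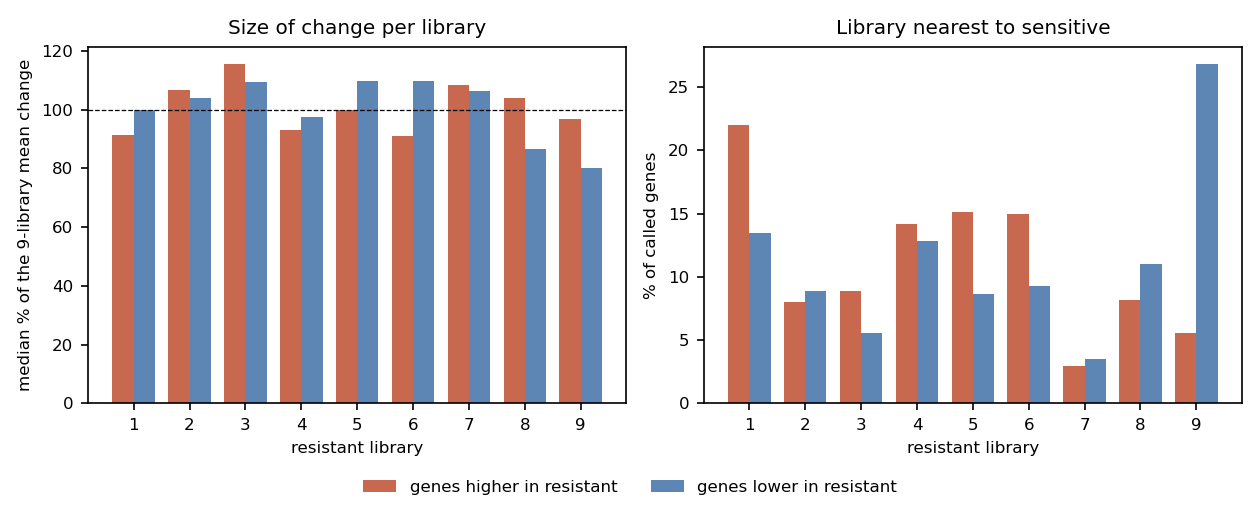
The left panel gives, for each of the 9 resistant libraries, the median change as a percentage of the group's mean change. The right panel, headed as nearest to sensitive, gives the percentage of called genes in which the library was least changed. Least changed means the lowest CPM of the 9 for genes higher (orange bars) and the highest for genes lower (blue bars) in resistant libraries. In the right panel library 1 has the tallest orange bar (22.04%) and library 9 the tallest blue one (26.8%).

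Genes were also read by 37 lists of known roles, against the background of 19.3% higher and 18.2% lower genes. The log2 fold change of the median gene was 0.06. Scores of a list average log2 CPM over its tested members. In the 16 cases below in which edgeR called 0 members of a list in a direction, 2 members in all had an unadjusted p under 0.05 in that direction, and DESeq2 called 0. Epithelial junction and keratin genes were lower in 25 of 32 and higher in 0 (median log2 fold change -2.91), and all 9 resistant libraries lay below the sensitive ones in 29. Only Jup, the junction protein plakoglobin, was evenly lower (log2 fold change -0.81), and 8 members were uneven. The list score was 5.23 and 5.69 in resistant libraries 8 and 9 and 0.78 to 3.41 in the other 7, against 6.76 to 6.99 in sensitive ones. Grhl1, a transcription factor of epithelial barriers, had 0.172 to 5.61 CPM (median 1.39), against 71.9, 46.3 and 67.8 CPM (log2 fold change -4.99 ± 0.72 SE, adjusted p = 2.39e-04). The keratin gene Krt8, partner of Krt18, was less uneven, with 143 to 429.9 CPM, against 1161, 1339 and 1466 CPM. Without sensitive library 1 the list had 16 lower members, without sensitive library 3 it had 15, and without resistant libraries 8 and 9 it had 30.

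Lung epithelial identity genes were lower in 13 of 23 and higher in 0, with scores of 4.10 and 4.69 in resistant libraries 8 and 9 and 1.27 to 1.80 in the other 7, against 5.46 to 5.81 in sensitive libraries. Cebpa, a transcription factor of alveolar maturation, was evenly lower at 18.2 to 59.3 CPM, against 102, 148 and 130.1 CPM, with library 9 highest. Scgb3a1, a secretoglobin of airway club and goblet cells, had 0 CPM in its lowest, 0.0462 in its median and 8.55 in its highest resistant library, number 9, against 443, 164 and 232 CPM. Xenobiotic and aldehyde metabolism genes, many of them active in club cells, were lower in 8 of 24 and higher in 2, and 13 were lower without resistant libraries 8 and 9. Aldh1a3, a retinoic acid synthesising enzyme, fell to 1.202 to 4.84 CPM, against 31.001, 124 and 93.2 CPM (log2 fold change -4.64 ± 0.37 SE, adjusted p = 5.35e-06), while Aldh3a1 and Fmo1 were higher (log2 fold changes 3.16 and 3.88). Both of those calls were lost without sensitive library 3, that of Aldh3a1 also without sensitive library 1 and that of Fmo1 also without sensitive library 2.

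**Figure D4:**
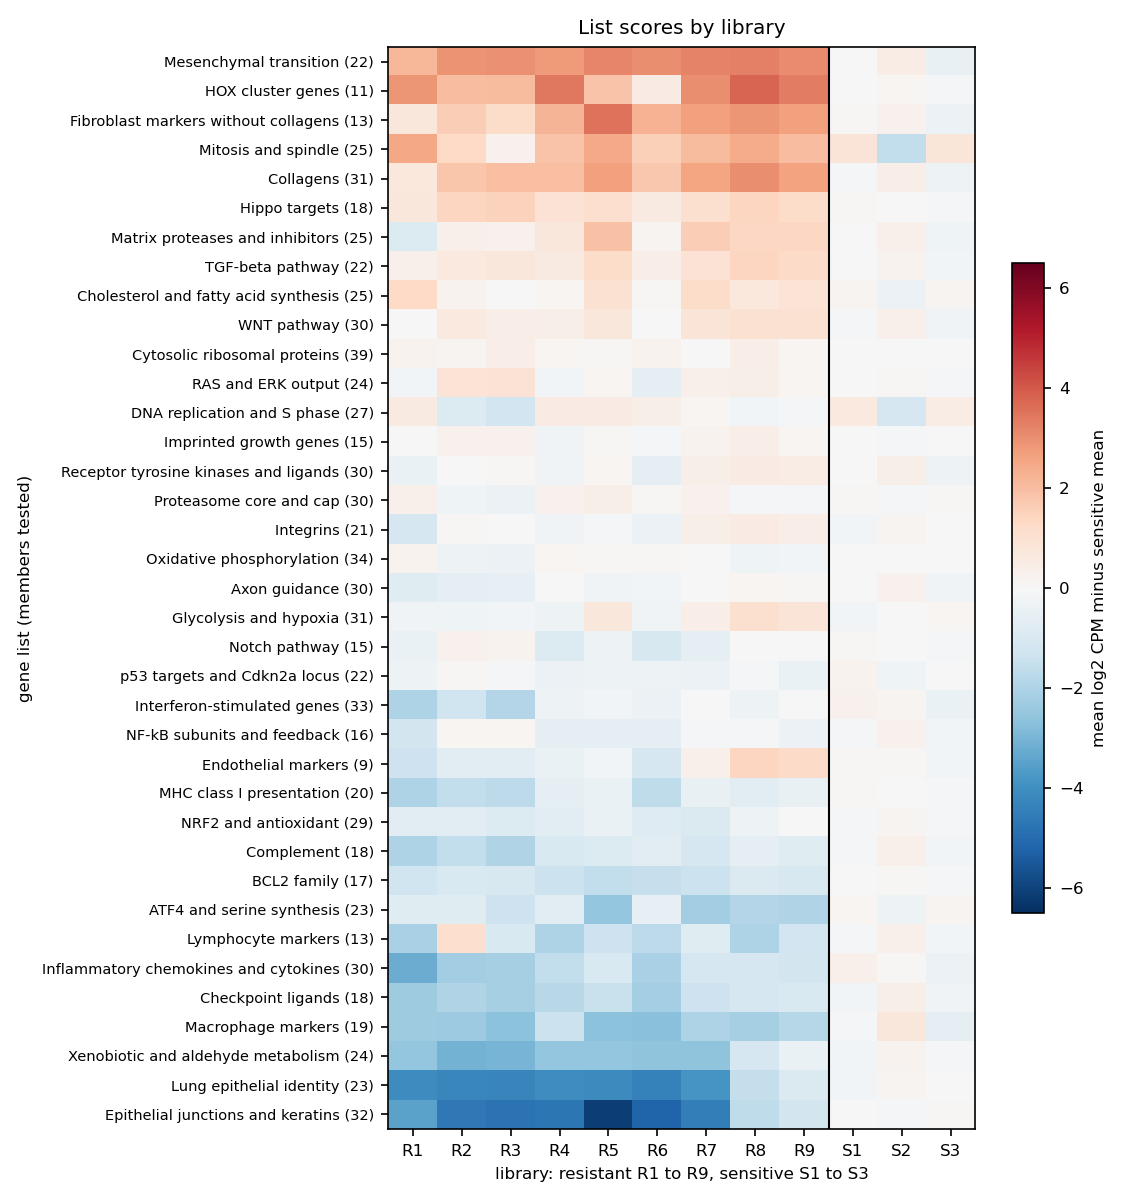
Score of each of the 37 lists in each library as the difference from the sensitive mean (colour, mean log2 CPM), with resistant libraries R1 to R9 left of the line and sensitive libraries S1 to S3 right of it. Epithelial and lung epithelial scores are lowest in R1 to R7 and nearer to the sensitive mean in R8 and R9, while mesenchymal scores are higher in all 9.

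Mesenchymal transition genes were higher in 12 of 22 and lower in 0 (median log2 fold change 2.46), and unlike the epithelial score their score did not split off libraries 8 and 9. It was 4.71 in resistant library 1 and 5.30 to 5.82 in the other 8, against 2.08 to 3.03 in sensitive libraries. Contractile members did not pass the test, with log2 fold changes of -0.18 for Acta2, smooth muscle actin, and -0.53 for Tagln, transgelin. Collagen genes were higher in 15 of 31 and lower in 2, and 1 of the 15, Col24a1, was even (log2 fold change 3.32). Col6a1, a chain of the beaded filament collagen VI, had 43.3 to 364 CPM (median 140.3), against 1.698, 2.26 and 1.55 CPM. Col5a1, which nucleates collagen I fibrils, had 60.1 to 208 CPM (median 127), against 6.85, 9.995 and 2.77 CPM. Every resistant library was above every sensitive one for both, library 5 being the highest. Col4a6, a basement membrane chain, had 0.0462 to 1.89 CPM, against 6.52, 10.97 and 8.23 CPM, and Col26a1 had 3 counts in all resistant libraries together, against 464 counts in the sensitive ones.

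Matrix proteases and their inhibitors were higher in 8 of 25 and lower in 2. Adamts14, a procollagen N-proteinase, had 20.1 to 59.01 CPM, against 0.219, 0.122 and 0.0675 CPM (log2 fold change 8.10 ± 0.62 SE, adjusted p = 3.97e-06). Plat, tissue plasminogen activator, was lower at 29.9 to 149.9 CPM, against 401, 659 and 203 CPM. Adamts12 was higher in all 9 libraries at 0.7295 to 5.94 CPM, against 0.0548 to 0.122 CPM. Mmp15, a membrane-bound protease, was lower and uneven, with 12.4 CPM in library 9 and a median of 0.332 CPM, against 21.9, 40.7 and 20.3 CPM, a call lost without any 1 sensitive library. Integrin genes moved in both directions, with 6 of 21 higher and 6 lower, with 3 higher without sensitive library 1. Itga5, the fibronectin receptor subunit, had 67.4 to 276 CPM, against 26.7, 36.4 and 26.05 CPM, and Itga2b 5.97 to 24.01 CPM, against 0.607 to 0.914 CPM. Itga9 had 1.62 to 5.64 CPM, against 13.9 to 29.6 CPM, and the leukocyte integrin Itgb2 19.8 to 89.5 CPM, against 257, 423 and 159 CPM.

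Fibroblast markers without collagens moved with the collagens: 10 of 13 were higher and 2 lower, and their summed level was 280.5 to 956 CPM in resistant libraries, against 96.2 to 142 CPM in sensitive ones. Fbln2, the matrix protein fibulin-2, had 43.1 to 343 CPM (median 106), against 1.75, 2.38 and 2.09 CPM, and Pdgfra, a growth factor receptor of fibroblasts, 6.705 to 272 CPM (median 36.7), against 1.15, 4.45 and 1.82 CPM. Gsn, gelsolin, was the evenly higher member at 140.2 to 264 CPM, against 68.2 to 97.3 CPM. Of the 5 defining markers Pdgfra, Pdgfrb, Dcn and Lum were called higher. Pdgfrb had 2.68 to 30.9 CPM, against 1.42 to 5.91 CPM, Dcn, decorin, 5.78 to 41.3 CPM, against 3.58 to 5.91 CPM, and Lum, lumican, 0.139 to 3.18 CPM, against 0 to 0.183 CPM. The fifth, Postn, was too low to test, with 44 counts over the resistant libraries and 0 in the sensitive ones. The part of these markers in the collagen and mesenchymal results was not tested. Has2 and Pi16 were lower, calls lost without any 1 sensitive library, that of Pi16 also without resistant library 1, 2, 3, 4, 6, 7 or 9. Without sensitive library 1 or 3 the list had 6 or 5 higher members.

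Of 22 TGF-beta pathway genes 7 were higher, 3 lower and 12 not called. Those higher included the 3 ligands Tgfb1, Tgfb2 and Tgfb3 (log2 fold changes 1.11, 2.65 and 5.50) and the latent binding proteins Ltbp1, Ltbp2 and Ltbp3. Tgfbr3, the co-receptor betaglycan, had 76.4 to 335 CPM (median 174), against 18.9, 25.3 and 10.3 CPM. The 3 lower genes were all even: Tgfbr1 at 36.6 to 72.8 CPM, against 80.03 to 108 CPM, Tgfbr2 (log2 fold change -0.87) and Skil, a repressor of SMAD proteins, at 24.8 to 76.1 CPM, against 89.5 to 96.9 CPM. The call of Tgfbr1 was lost without sensitive library 2.

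Of 30 receptor tyrosine kinase and ligand genes 7 were higher and 10 lower. Those higher included Axl, Fgfr1, Pdgfra, Pdgfrb and Igf1r, and those lower the ERBB family members Erbb2 and Erbb3 and their ligands Areg, Tgfa and Nrg1. Fgfr1 had 125 to 373 CPM (median 167), against 14.4, 18.3 and 5.601 CPM, and Areg, amphiregulin, 11.4 to 41.4 CPM, against 89.1, 84.9 and 99.3 CPM. Epha2 was evenly lower at 226 to 396 CPM, against 615 to 748 CPM. In ERK output 6 of 24 were higher and 2 lower, with Etv4 evenly higher at 67.6 to 146 CPM, against 25.3, 23.6 and 23.8 CPM, Spred3 higher (log2 fold change 4.19), Phlda1 lower (log2 fold change -1.96) and the receptor Epha4 lower and uneven (0.133 to 23.9 CPM, against 95.8 to 149 CPM).

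Hippo genes, the pathway's nuclear factors and their targets, were higher in 9 of 18, 6 of them evenly, and lower in 2. The co-activators Yap1 and Wwtr1 and their DNA-binding partner Tead1 were evenly higher (log2 fold changes 0.61, 2.13 and 1.03). Tead2 had 37.7 to 143 CPM (median 58.5), against 3.18, 2.499 and 4.12 CPM. The target genes F3, tissue factor, and Nuak2 were lower, at 14.7 to 98.2 CPM, against 157 to 240.3 CPM, and at 1.35 to 7.44 CPM, against 12.4 to 17.6 CPM. In the WNT list 7 of 30 were higher and 2 lower, with 4 higher without sensitive library 1 or 3. Fzd2, a WNT receptor, was among the most even at 38.7 to 76.4 CPM, against 6.41, 6.28 and 6.48 CPM (log2 fold change 3.29 ± 0.23 SE, adjusted p = 1.92e-06). Fzd8, another receptor, had 9.49 to 16.7 CPM, against 2.23 to 3.29 CPM. The epithelial ligand Wnt7a was lower in all 9 libraries (0 to 0.649 CPM, against 2.903 to 8.41 CPM), and Wnt7b in 8 of 9, a call lost without any 1 sensitive library or without resistant library 2, 4, 5, 6 or 7. Notch genes were higher in 3 of 15 and lower in 4. The fringe glycosyltransferases Mfng and Rfng were evenly higher (log2 fold changes 1.64 and 0.76), Maml2, a co-activator, evenly lower (-1.30) and the ligand Jag1 lower (-1.51).

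Positional and imprinted genes differed by library. Of 11 HOX genes tested 6 were higher, all in the Hoxb cluster, and 0 lower, with 3 higher without any 1 sensitive library. Hoxb6 had 0.404 CPM in resistant library 6 and up to 35.3 CPM in library 4 (median 12.7), against 0.1095, 0.305 and 0 CPM. Hoxb7 had 0.224 CPM in library 6, a median of 11.1 and a high of 28.7, against 1 count in the sensitive group. Imprinted growth genes went both ways, with 6 of 15 higher and 4 lower. Sgce and Gnas were evenly higher, Sgce at 12.3 to 32.3 CPM, against 2.36, 2.19 and 2.43 CPM, and Gnas, the stimulatory G protein subunit, at 590.3 to 792 CPM, against 358, 363 and 308 CPM, with an SD of 0.13. Grb10, an adaptor that restrains insulin signalling, had 0.387 to 2.36 CPM, against 41.6, 30.5 and 51.8 CPM, and Peg3 0 to 0.531 CPM, against 2.74 to 3.67 CPM. Axon guidance genes, which also steer vessels and tumour cells, were higher in 5 of 30, 3 without sensitive library 3, and lower in 9. Slit3 was higher at 28.02 to 86.1 CPM, against 1.21, 2.44 and 0.607 CPM, and the netrin receptor gene Unc5b evenly higher at 119 to 237 CPM, against 60.5 to 83.9 CPM. Sema4a and Efnb2 were lower (log2 fold changes -2.98 and -1.68).

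MHC class I presentation genes were lower in 7 of 20 and higher in 0, with 4 lower without sensitive library 1. Scores were 5.23 to 5.63 in resistant libraries 1, 2, 3 and 6 and 6.52 to 6.795 in the other 5, against 7.12 to 7.30 in sensitive libraries. Tapbpl, the peptide editor TAPBPR, was evenly lower at 5.64 to 12.02 CPM, against 41.6, 30.7 and 46.9 CPM, as were Erap1 and Psme2 (log2 fold changes -1.13 and -0.92). H2-D1, a class I heavy chain with near-identical family members, had 44.3 to 145 CPM, against 373, 405 and 335 CPM. Interferon-stimulated genes were lower in 7 of 33 (21.2%, near the 18.2% of all genes tested) and higher in 2. Without sensitive library 1 the list had 3 lower members, and without sensitive library 2 it had 2. Its score was 1.11, 1.80 and 1.20 in resistant libraries 1, 2 and 3, below the sensitive range of 2.65 to 3.38. In resistant libraries 4 to 9 it was 2.73 to 3.12, within that range. Oas1a, a sensor of double-stranded RNA, had 0.464 to 3.33 CPM, against 16.7, 16.03 and 7.02 CPM, and Parp14 2.65 to 23.9 CPM, against 30.7 to 68.9 CPM. Bst2, tetherin, was evenly higher at 72.3 to 145 CPM, against 44.5 to 57.2 CPM, a call lost without sensitive library 3, and Ifit2 was higher at 4.07 to 17.6 CPM, against 2.29 to 2.79 CPM.

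Inflammatory chemokines and cytokines were lower in 14 of 30 and higher in 1, against a background of 18.2% lower. The exception was Csf1, the macrophage growth factor, at 63.3 CPM in its lowest, 273 in its median and 454 in its highest resistant library, against 18.5, 18.2 and 14.7 CPM (log2 fold change 3.91 ± 0.61 SE, adjusted p = 4.26e-04). Cxcl5, a neutrophil chemokine, had 12.6 to 328 CPM (median 63.2), against 4959, 3304 and 2908 CPM (log2 fold change -5.14 ± 0.70 SE, adjusted p = 1.75e-04). Ccl20, the ligand of CCR6, had 0.185 to 3.39 CPM, against 99.1, 94.3 and 73.2 CPM. Among NF-kB genes 1 of 16 was higher and 3 lower: Nfkb2 had 66.9 CPM in library 5, below the sensitive range of 78.7 to 102 CPM, and up to 189 CPM elsewhere, a call lost without any 1 sensitive library or without resistant library 2, 3, 4, 6, 7 or 8. Birc3 and Nfkbib were lower (log2 fold changes -1.46 and -0.78), and the call of Birc3 was lost without sensitive library 2 and that of Nfkbib without sensitive library 3. Complement genes were lower in 8 of 18 and higher in 2. Cfb, factor B of the alternative pathway, had 3.34 to 33.4 CPM, against 215, 275 and 294 CPM, and the complement regulator gene Cr1l was evenly lower at 17.3 to 37.2 CPM, against 83.9 to 104 CPM. Serping1, the C1 inhibitor, was higher, with 4.76 CPM in library 1 and a median of 53.9, against 1.28 to 4.57 CPM. Masp1 had 295 counts in the resistant libraries and 1 count in the sensitive ones, a call lost without sensitive library 2 or 3.

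Checkpoint ligand genes were lower in 9 of 18 and higher in 0. Nt5e, the adenosine-producing enzyme CD73, had 26.4 to 124 CPM (median 66.5), against 513, 469 and 812 CPM (log2 fold change -3.09 ± 0.37 SE, adjusted p = 6.61e-05). Cd80, a ligand of CD28 and CTLA-4, had 0.786 to 4.003 CPM, against 17.4, 21.6 and 6.34 CPM. Macrophage markers moved with these lists. Their summed level over 20 genes was 522 to 1750.0 CPM in resistant libraries, against 3097 to 7193 CPM in sensitive ones, and 14 of 19 tested were lower and 0 higher. Adgre1, the surface marker F4/80, had 6.24 to 24.04 CPM, against 175, 236 and 90.9 CPM, and Itgam was evenly lower at 51.3 to 147 CPM, against 392, 664 and 302 CPM. Of the defining markers none was at 0 in either group, and Cd68 (23.999 to 169.7 CPM, against 38.6 to 168 CPM) and C1qa overlapped between groups. The part of macrophage RNA in the class I, interferon, chemokine, complement and checkpoint results was not tested. Lymphocyte markers summed to 17.6 to 99.1 CPM in resistant libraries, against 85.7 to 196 CPM, with Il2rg and Ptprc, a pan-leukocyte gene, the 2 of 13 that were lower. Endothelial markers summed to 25.7 to 109.5 CPM, against 42.7 to 51.6 CPM, with Egfl7 the 1 of 9 that was higher and 0 lower. The defining markers Pecam1 and Cdh5 were not called. Pecam1 was below the sensitive range of 4.12 to 9.33 CPM in 8 of 9 resistant libraries (0.277 to 6.49 CPM). Cdh5 was below its sensitive range of 0.81 to 2.08 CPM in 7 of 9, and above it in libraries 8 and 9, at 5.78 and 4.22 CPM. Without resistant libraries 8 and 9 the list had 1 lower member.

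Mitotic genes were higher in 14 of 25 and lower in 0. Of 27 genes of DNA replication, 0 were called by edgeR in either direction, with 1 at an unadjusted p under 0.05, and DESeq2 called 0. Cenpa, the centromeric histone, was evenly higher at 61.9 to 143 CPM, against 21.6, 7.62 and 23.1 CPM, and so was Bub1b, a spindle checkpoint kinase, at 77.1 to 221 CPM, against 40.5, 12.1 and 45.6 CPM. Sensitive library 2 stood low in both lists. Mitotic scores were 4.93 to 7.14 in resistant libraries, against 5.48, 3.01 and 5.39 in sensitive libraries 1, 2 and 3, and the list had 8 higher genes without sensitive library 2, 9 without sensitive library 1, 10 without sensitive library 3 and 8 without resistant libraries 6, 8 and 9. Cdkn2a and Cdkn2c, inhibitors of cell cycle kinases, were evenly higher. Cdkn2a, which encodes p16 and p19ARF, had 484 to 837 CPM (median 645), against 208, 197 and 226 CPM (log2 fold change 1.61 ± 0.17 SE, adjusted p = 3.26e-05). Cdkn2c had 25.3 to 48.3 CPM, against 8.11 to 17.3 CPM. The list of p53 targets and the Cdkn2a locus had 9 of 22 lower, 5 without sensitive library 3 and 6 without sensitive library 1, and 4 higher. Ccng1 and Aen, p53 targets, were evenly lower (log2 fold changes -1.09 and -1.17). In the BCL2 family 5 of 17 were lower and 0 higher. Bcl2a1d had 0.925 to 2.55 CPM, against 70.3, 65.2 and 43.9 CPM, and its near-identical copy Bcl2a1b 1.53 to 12.7 CPM, against 86.04 to 134 CPM, so reads could be split between them.

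Glycolysis and hypoxia genes were higher in 5 of 31 and lower in 4, with 3 higher without sensitive library 1 or 3. Of the isoenzymes, Pfkm, muscle phosphofructokinase, was evenly higher at 64.2 to 153 CPM, against 25.9, 29.01 and 30.03 CPM, and Hk2, hexokinase 2, evenly lower at 75.2 to 152 CPM, against 315, 269.6 and 344 CPM. Hif1a, the oxygen-regulated transcription factor, was evenly lower at 214 to 507 CPM, against 1169.6, 935 and 994 CPM, and Eno2 was higher in 8 of 9 libraries (log2 fold change 2.96). Cholesterol and fatty acid synthesis genes were higher in 11 of 25 and lower in 0, none evenly, with 3 higher without sensitive library 1, 4 without sensitive library 2, 5 without sensitive library 3 and 7 without resistant libraries 8 and 9. Dhcr7, the last enzyme of cholesterol synthesis, had 30.1 to 99.6 CPM, against 19.3, 19.1 and 14.6 CPM, and Elovl6, a fatty acid elongase, 61.1 to 227 CPM, against 36.04, 26.02 and 47.9 CPM, with library 1 highest for both. ATF4 and serine synthesis genes were lower in 10 of 23 and higher in 0, with 5 lower without sensitive library 1 or 3. Slc7a11, the cystine importer, had 146 to 541 CPM (median 298), against 1922, 1457 and 1137 CPM (log2 fold change -2.20 ± 0.33 SE, adjusted p = 3.12e-04). Psph, the last enzyme of serine synthesis, had 34.2 to 151 CPM, against 362, 222 and 369 CPM. NRF2 and antioxidant genes were split, with 6 of 29 higher and 8 lower. Nqo1, a quinone reductase, had 11.7 to 98.8 CPM, against 1.31, 2.01 and 0.337 CPM, Tkt, transketolase, was evenly higher (0.83), and Osgin1 was lower at 4.002 to 16.9 CPM, against 39.7 to 59.8 CPM. The higher count was 3 without sensitive library 1 or 3, and the lower count was 5 without sensitive library 2.

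Housekeeping lists had the smallest spread. Cytosolic ribosomal protein genes, with a median resistant SD of 0.22, were higher in 8 of 39, 7 of them evenly, and lower in 0. Rpl3 had 1896 to 2542 CPM, against 1305, 1204 and 1433 CPM (log2 fold change 0.72 ± 0.13 SE, adjusted p = 0.00123). Rpl15 had 963 to 1494 CPM, against 671 to 794 CPM. Near-identical pseudogenes could take some of their reads, and 4 were higher without sensitive library 1 or 3 and 5 without sensitive library 2. Other scalings gave 6 (relative log expression) to 11 (upper quartile) higher and 0 lower. Oxidative phosphorylation genes were higher in 2 of 34 and lower in 4, with 0 higher without sensitive library 1 or 3, 1 without sensitive library 2, and 2 lower without any 1 sensitive library. Ndufa1 was evenly lower (log2 fold change -0.70), Uqcrq lower (-1.34), and Cox7a1 higher (1.67), a call lost without sensitive library 1 or 3. Proteasome genes were higher in 3 of 30 and lower in 2, with 1 higher without sensitive library 1 or 3 and 0 without sensitive library 2. Psmc2 and Psmc4, ATPase subunits of the cap, were evenly lower (-1.15 and -0.85), while Psma5 and Psmd3 were higher (0.62 and 0.50), calls lost without sensitive library 2, that of Psma5 also without sensitive library 3 and that of Psmd3 also without sensitive library 1.

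Called genes were not spread evenly over chromosomes. Among 9354 genes with a position whose mean log2 CPM reached 3, 19.5% were higher and 16.1% lower. On chromosome 12, 37.4% of 342 genes were higher, 6.43% lower and 26.0% evenly higher, against 10.9% evenly higher over all chromosomes. The median gene of chromosome 12 differed from its sensitive mean by 0.29 to 0.61 in log2 CPM over the 9 resistant libraries, and by -0.07 to 0.08 in the sensitive libraries, which are centred on 0 by construction. The median log2 fold change was 0.38, 0.45 and 0.54 in the first, the second and the last stretch of its genes, cut into equal numbers by position. Chromosome 5 was the other way, with 10.2% of 626 genes higher, 30.2% lower and 19.01% evenly lower, against 8.58% evenly lower over all chromosomes. Its median gene differed by -0.39 to -0.14 in resistant libraries and by -0.08 to 0.05 in sensitive ones, and by -0.30, -0.33 and -0.19 along its length. On no other chromosome did all 9 resistant libraries lie on 1 side of the sensitive range. On chromosomes 3 and 19, 8 of the 9 lay above that range, and on chromosomes 8, 11 and 14, 7 did, with 1 below it on chromosomes 8, 14 and 19. On chromosomes 1, 15, 16 and 17, 6 lay below it and 1, 2, 3 and 1 above it. Single libraries also departed from the other resistant ones: library 6 by 0.35 on chromosome 13 and 0.52 on chromosome 16, and library 5 by -0.43 on chromosome 19. Named genes on chromosome 12 include Twist1 and Tgfb3, which were higher, and Hif1a and Grhl1, which were lower. Those on chromosome 5 include Cxcl5, Col26a1, Psph and Psmc2, which were lower, and Cenpa, which was higher. The chromosomes were singled out after their values were seen, and DNA copy number was not measured.

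**Figure D5:**
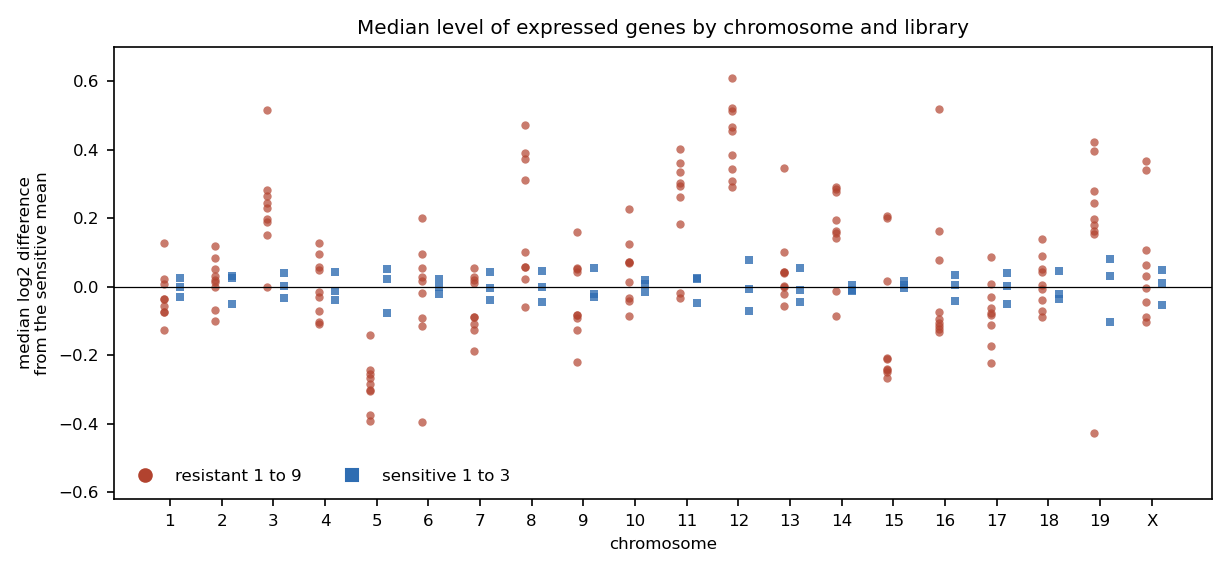
Median difference in log2 CPM from the sensitive mean over the expressed genes of each chromosome (y axis), with red circles for the 9 resistant and blue squares for the 3 sensitive libraries. All resistant libraries are at 0.29 to 0.61 on chromosome 12 and at -0.39 to -0.14 on chromosome 5, while on the other chromosomes at least 1 resistant library falls within the sensitive range or beyond its other side.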

How the data were processed

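The kit for mRNA libraries was stranded, and read pairs came from a NovaSeq instrument, per the labels' protocols. STAR 2.6.0a, DESeq2 1.26.0 and the mouse build mm10 are named in the submitters' processing notes. Neither the read counter nor its gene models are given in the sources used here. For the 12 libraries the authors deposited whole-number read counts per gene, not normalized. Symbols stored as dates were restored through Entrez numbers in 26 of 27 cases. Gene positions are from GENCODE and promoters from RefSeq (GRCm38.p6).

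Genes were filtered with filterByExpr and scaled by TMM in edgeR 4.0.16 (R 4.3.3). Resistant and sensitive libraries entered edgeR's quasi-likelihood test over all genes, with Benjamini-Hochberg adjustment and a threshold of 0.05. The fit was tested on simulated data. A standard error is the log2 fold change over the square root of F. CPM uses TMM-scaled library sizes, and SDs are of log2 CPM with a prior count of 2. All promoter windows of a gene were searched for the motif. Alternatives were other scalings, filters, prior counts and limits, DESeq2 1.42.0, a replicate block and fits without single libraries or without resistant libraries 6, 8 and 9 or 8 and 9. Summing resistant pairs 2 and 3 and 8 and 9 was added after seeing the data.

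Members, lists and tests were chosen with earlier results of these data known. Named genes are the 10 even changes of largest size in each direction, up to 6 uneven changes in each direction and 8 uncalled genes of largest SD, all with a mean log2 CPM reaching 3 and without gene models, Riken clones and pseudogenes, and up to 2 called members per list and direction by adjusted p. Other genes, among them those given by fold change alone, were named after their values were seen. Depth limits the precision of low genes, and p-values cover the spread between libraries only. The values of 1 named gene are not reported here.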

Additional observations from a re-analysis of the deposited data

Results flagged for a closer look

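Of 199 sets of 9 resistant values examined (named genes, list scores and chromosome medians), 15 had 1 library farther from the others than a test for single outlying values allows at the 95% level, and chance alone flags about 1 in 20 sets. Library 1 was low for Bcl2a1d, a BCL2 family gene of leukocytes, at 0.925 CPM, for Serping1 at 4.76 CPM, and for the mesenchymal transition score at 4.71. Library 5 was low for Lrrc8e at 3.23 CPM and Nfkb2 at 66.9 CPM, and its median over chromosome 19 was -0.43. Library 6 was low for Hoxb7 at 0.224 CPM, and its medians were high on chromosomes 13, at 0.35, and 16, at 0.52. Library 7 was high for Gpx8 at 71.1 CPM and low for Osgin1 at 4.002 CPM. Library 9 was high for Cebpa at 59.3 CPM and Ugt1a7c at 10.2 CPM. Library 2 was high for the lymphocyte marker score at 2.43, and library 3 for Col26a1 at 0.133 CPM, which is near the limit of counting.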

How the results depend on the processing

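No named gene that was called in the main fit or in the alternative reversed its direction under any of 21 alternatives. Changes of sign in genes called in neither were not counted. Of the 134 named genes called, 108 were called under each alternative. Leaving out 1 library at a time gave 1765 to 2867 higher and 1859 to 2694 lower genes, 943 to 1326 evenly higher and 708 to 1040 evenly lower genes, and 4 to 33 unevenly higher and 53 to 103 unevenly lower genes. There were 1765 genes higher in resistant libraries without sensitive library 3 and 1800 without sensitive library 1. Unevenly higher genes numbered 4, 7 and 5 and unevenly lower genes 57, 56 and 53 without sensitive libraries 1, 2 and 3. The uneven class depended on the resistant libraries and on the limit: without resistant libraries 6, 8 and 9 it held 38 higher and 31 lower genes, and without resistant libraries 8 and 9 it held 31 lower genes. With an SD limit of 1.5 it held 108 higher and 238 lower genes, and with a limit of 2.5 it held 5 and 33. A prior count of 0.5 gave 47 and 209, and DESeq2 gave 46 unevenly higher genes. DESeq2 called 5322 of the 5380 genes that edgeR called.

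With the replicate number as a block, 4270 genes were called, 3554 of them shared with the fit without it, and there were 522 evenly lower and 204 unevenly lower genes. Numbers 4 to 9 occur only among resistant libraries and take up a block each. The group difference of this fit therefore rests on resistant libraries 1, 2 and 3 against the 3 sensitive ones, and its counts do not describe all 9. Libraries with the same number did not deviate together throughout (r = 0.17, 0.25 and -0.17). With 3 values and no known pair to set them against, this cannot decide whether the numbers pair libraries. The block fit gave 3 higher mitotic genes, 13 lower class I genes, 16 lower interferon-stimulated genes and 5 higher fibroblast markers.

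With 3 sensitive libraries, a gene that varies within that group sets its own limit. Genes near 0 counts give no reliable fold, and their SD is held down by the prior count.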
